A study of Mus musculus with 12 samples.

Results

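The transcription factors that drive epithelial-mesenchymal transition (EMT), together with the mesenchymal filament gene Vim, form a group of 10 genes chosen by their symbols: Twist1, Twist2, Snai1, Snai2, Zeb1, Zeb2, Prrx1, Tcf4, Foxc2 and Vim, out of 55573 genes in the count table. Their transcripts were measured by RNA-sequencing in tumourspheres, which are free-floating colonies grown without serum, of the mouse spindloid mammary tumour cell lines A1005, A1129 and A1471. The genotype of every line was MMTV-Metmt;Trp53fl/+;Cre, so that all 4 treatment groups carried both the mutant Met transgene under the mammary MMTV promoter and the conditional Trp53 allele. Each line was established from 1 tumour, and no line without the transgene entered the comparison. Spheres of each line received DMSO (vehicle), Crizotinib (an inhibitor of Met kinase, at 1 µM), PD173074 (an inhibitor of FGFR kinases, at 1 µM) or both together (Combo) over 24 h, which gave 12 libraries and 3 lines per treatment. The sphere medium held EGF, basic FGF and insulin in every group.

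In EMT, an epithelial cell loses its junctions and polarity and takes on a motile, spindle-shaped form. Factors of the Twist, Snail and Zeb families bind E-boxes, short DNA motifs of the form CANNTG, and repress junction genes such as Cdh1, which encodes E-cadherin. Twist proteins are basic helix-loop-helix (bHLH) factors that work as dimers with E-proteins such as Tcf3, Tcf4 and Tcf12, and Id proteins take E-proteins out of such dimers. Vimentin, the intermediate filament protein encoded by Vim, is the usual marker of the mesenchymal state. The question asked of the data was which of the EMT drivers were lower beside Twist1 when both receptors were inhibited, and which were not.

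The promoters of 4 of the 6 members called in Combo in a fit with line as a blocking term (the blocked fit) are shown, those with a RefSeq window outside the gene's annotated exons. Twist1, Twist2 and Snai1 were lower in that fit and Zeb2 was higher, and Prrx1 (lower) and Tcf4 (higher) are not printed. Each sequence is the 250 bases before the gene's RefSeq start in build GRCm38.p6, read 5′ to 3′ on the gene's own strand, and the Zeb2 start shown is the one farthest upstream. Capitals mark the letters of any of 5 motifs found on either strand: the E-box CANNTG, the Snail and Zeb type E-box CACCTG (a subset of the former), TGANTCA (AP-1), CCGGAAGT (ETS) and TGTTTAC (forkhead).
Twist1, chr12:33957421-33957670, plus strand: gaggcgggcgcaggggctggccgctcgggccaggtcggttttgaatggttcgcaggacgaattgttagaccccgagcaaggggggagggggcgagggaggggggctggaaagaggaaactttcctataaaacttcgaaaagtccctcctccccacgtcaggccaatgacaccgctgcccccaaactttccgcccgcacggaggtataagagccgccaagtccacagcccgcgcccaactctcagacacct
Twist2, chr1:91801211-91801460, plus strand: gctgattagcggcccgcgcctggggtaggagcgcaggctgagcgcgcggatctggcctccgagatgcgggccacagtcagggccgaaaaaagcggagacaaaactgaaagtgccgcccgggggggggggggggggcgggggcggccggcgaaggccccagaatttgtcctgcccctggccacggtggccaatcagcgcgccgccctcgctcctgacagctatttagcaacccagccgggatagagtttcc
Snai1, chr2:167537945-167538194, plus strand: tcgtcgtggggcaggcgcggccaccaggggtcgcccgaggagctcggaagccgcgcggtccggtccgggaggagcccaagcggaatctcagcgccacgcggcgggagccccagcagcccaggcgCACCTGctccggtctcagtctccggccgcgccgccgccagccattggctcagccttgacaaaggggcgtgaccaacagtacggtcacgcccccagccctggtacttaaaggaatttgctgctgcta
Zeb2, chr2:45117443-45117692, minus strand: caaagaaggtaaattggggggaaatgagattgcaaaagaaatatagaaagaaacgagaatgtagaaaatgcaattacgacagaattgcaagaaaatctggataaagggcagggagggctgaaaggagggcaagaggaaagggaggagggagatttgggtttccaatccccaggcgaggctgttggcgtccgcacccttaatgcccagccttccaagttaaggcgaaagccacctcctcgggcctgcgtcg
The only match in these 4 windows was CACCTG in Snai1, 126 bases before the start, which is an E-box as well. Of the 3 other RefSeq windows of Zeb2, which reach into its annotated exons, the one farthest downstream held TGANTCA at positions −189 and −132 from its start and the others held no match. Among 32851 RefSeq promoter windows of the same length, CANNTG was present in 66.2%, CACCTG in 17.2%, TGANTCA in 6.75%, TGTTTAC in 3.17% and CCGGAAGT in 2.88%. The GC content was 70.0% in the Snai1 window, 68.8% in Twist2, 62.4% in Twist1 and 49.6% in Zeb2. Prrx1 and Vim also had RefSeq windows, which reached into annotated exons, so that 6 of the 10 members matched the promoter table.

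The libraries held between 13031492 and 17750476 counts. Of the 10 members, 9 passed the filter on low counts, as did 13836 of all genes, and Snai2 did not. Every line received every treatment, so the libraries are paired by line. Libraries of the same line deviated from their treatment means together, with a correlation across genes of between 0.766 and 0.962 in 18 pairs. Each result is given from an unpaired edgeR fit, because the study's own analysis was unpaired. Where the call differs, the blocked fit is given as well. The label of mesenchymal tumour cells was checked against markers of 6 cell classes. Of the 6 epithelial markers, Krt5 was at 0 in every library, Cdh1 reached at most 0.564 CPM (counts scaled by library size) and Epcam at most 2.08 CPM. The 6 fibroblast markers had the highest sums of the 6 classes, from 139 to 335 CPM in DMSO and from 345 to 947 CPM in Combo, although Thy1 among them was at 0 in every library. The leukocyte marker Lyz2 and the adipocyte markers Adipoq and Lep were at 0 in every library as well, and the 4 endothelial markers summed to at most 0.752 CPM and the 5 pericyte or smooth muscle markers to at most 4.002 CPM. The 6 leukocyte markers summed to at most 42.2 CPM, nearly all from Ptprc and Cd68, the 6 epithelial markers to at most 52.3 CPM, nearly all from Krt8 and Krt18, and the 4 adipocyte markers to at most 65.0 CPM, from Fabp4.

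Members differed widely in level before any inhibitor was added. Compared per length of annotated exon, Vim stood highest in DMSO at 609 ± 74.4 RPKM (CPM divided by exon length in kilobases, mean ± SD, n = 3 lines). Twist1 came next at 69.7 ± 7.71 RPKM, and its range over the lines did not reach that of Vim. Below it followed Snai1 at 38.1, Prrx1 at 18.2, Twist2 at 10.03, Foxc2 at 8.27, Zeb1 at 6.36, Tcf4 at 4.51 and Zeb2 at 2.07 RPKM, each overlapping with its neighbour in the order over the 3 lines. Snai2 came last at 0.0656 RPKM, below the range of Zeb2.

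The lines were alike for some members and far apart for others. In DMSO the highest and lowest line differed 1.25-fold for Vim, 1.25-fold for Twist1 and 1.28-fold for Twist2. Prrx1, a homeobox factor of mesenchymal tissue, was read 2, 4678 and 4314 times in A1005, A1129 and A1471. Foxc2, a forkhead factor linked to EMT in mammary cells, was read 16, 444 and 538 times. Snai1, the zinc-finger repressor of Cdh1, went the other way, with 129, 25.9 and 30.0 CPM in the same order. A1005 was therefore the line with the most Snai1 and almost no Prrx1, Foxc2 or Snai2, whose count there was 0 in all 4 treatments. With 1 library per line and treatment, these differences between lines have no replicate check. Their range within DMSO was larger than the range over the 4 treatments within any line for Snai1, Zeb1, Zeb2, Prrx1, Tcf4 and Foxc2, on the log2 scale, and smaller than it in every line for Twist1 and Twist2.

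**Figure D1:**
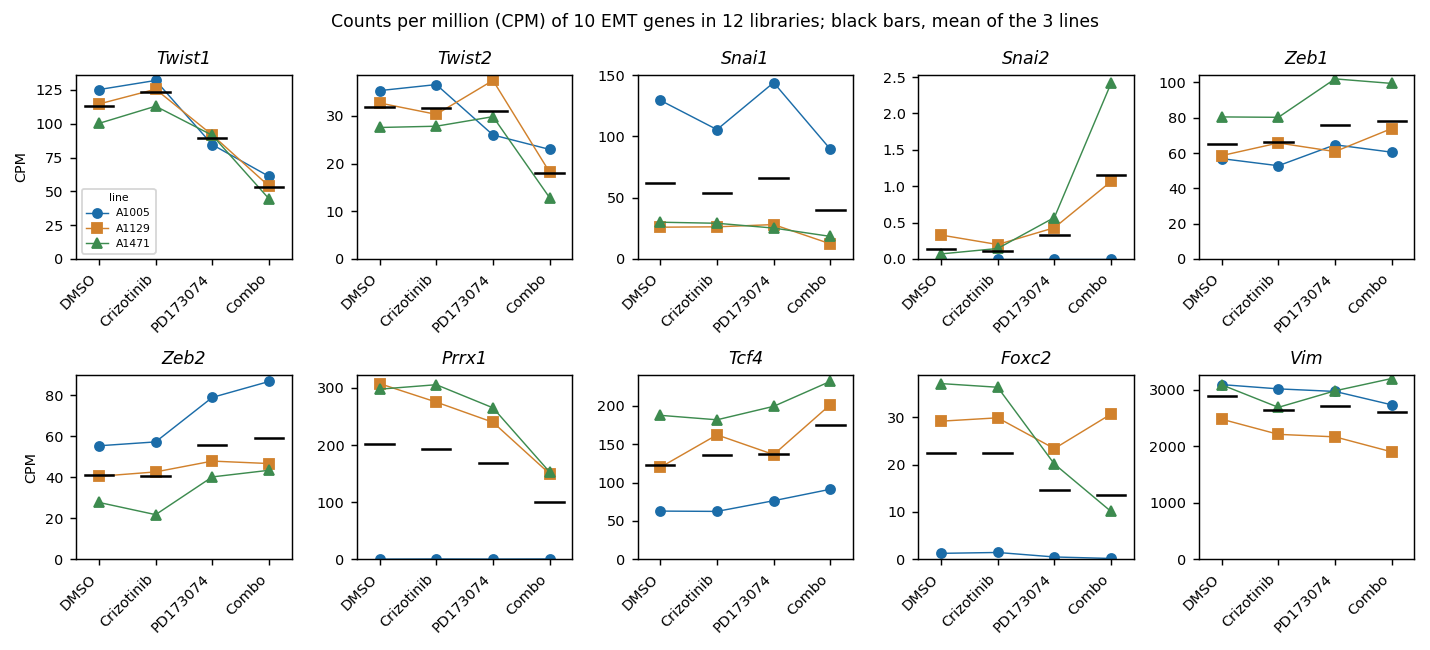
Level of each member in the 12 libraries in CPM (linear axis from 0), with 1 colour and symbol per line joined across treatments and a black bar at the mean of the 3 lines. Twist1 lies between 44.5 and 61.1 CPM in Combo and between 100.3 and 125 CPM in DMSO, while Prrx1 and Foxc2 lie near 0 in A1005 under every treatment.

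Twist1 fell to under its lowest untreated level in all 3 lines when both inhibitors were given, and Twist2 fell as well. Of the 9 members tested, these 2 passed the test for Combo against DMSO in the unpaired fit (adjusted p under 0.05), both lower, beside 14.4% of all genes tested in either direction and 8.28% lower. The median log2 fold change of the 9 was −0.62, beside 0.02 over all genes tested. In bulk RNA, a smaller share of cells with a transcript and less of it per cell cannot be told apart. In the blocked fit, 6 of the 9 passed, beside 54.8% of all genes: Twist1, Twist2, Snai1 and Prrx1 were lower (26.2% of all genes were) and Zeb2 and Tcf4 were higher (28.6% were). The share of members called with the block lay near that background.

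Twist1 (chr12:33957671-33959829, plus strand), the bHLH repressor that heads the group, was present at 125, 115 and 100.3 CPM in DMSO in A1005, A1129 and A1471. With Crizotinib it was at 132, 126 and 113 CPM, with PD173074 at 84.5, 91.7 and 91.5 CPM and with Combo at 61.1, 53.9 and 44.5 CPM. The 3 Combo libraries were the lowest of the 12, and the PD173074 libraries lay below the DMSO libraries without overlap. The log2 fold change in Combo was −1.09 ± 0.15 (SE, n = 3 lines, adjusted p = 0.00156, edgeR quasi-likelihood test), a ratio of 0.469. Within the lines the log2 change was −1.03, −1.09 and −1.17. Without A1129 the unpaired log2 fold change was −1.09 (adjusted p = 0.0698) and without A1471 it was −1.05 (adjusted p = 0.0577). The effect size thus changed little while the unpaired call was lost in these smaller fits. With the block the call held without any one line.

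Twist2 (chr1:91801461-91848028, plus strand), the related bHLH factor also known as Dermo1, was lower in each line in Combo. It was present at 35.3, 32.7 and 27.6 CPM in DMSO and at 23.0, 18.2 and 12.8 CPM in Combo, with no overlap between the groups. With PD173074 it stood at 26.0, 37.4 and 29.8 CPM, below DMSO in A1005 and above it in the other two lines. Its log2 fold change in Combo was −0.82 ± 0.24 with an adjusted p of 0.0466, and −0.84 ± 0.18 with an adjusted p of 0.00274 under the block. The unpaired call was close to the threshold and was lost without A1129 (adjusted p = 0.259), without A1471 (0.234), with total-count scaling, with no filter on low counts and in a fit of only the DMSO and Combo libraries. An antisense gene, Gm29100, covers 46.5% of the exon bases of Twist2 in the GENCODE annotation and had 18 to 54 counts per library. The strand setting of the counting was not given, so reads of the 2 genes cannot be told apart.

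Snai1 (chr2:167538195-167542814, plus strand) was lower in Combo in each line, by a log2 change of −0.53, −1.06 and −0.70 in A1005, A1129 and A1471. In Combo it was at 89.6, 12.3 and 18.4 CPM, and the distance between A1005 and the other lines made the groups overlap. The unpaired log2 fold change was −0.62 ± 1.02 with an adjusted p of 0.753. With the block it fell by 0.74 on the log2 scale with an SE of 0.16 and an adjusted p of 0.00259, a call kept without any one line.

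Prrx1 (chr1:163245119-163313710, minus strand) was measurable in A1129 and A1471 only. From 308 and 298 CPM in DMSO it went to 149.7 and 153 CPM in Combo, ratios of 0.486 and 0.513. In A1005 the counts were 2, 6, 4 and 8 in DMSO, Crizotinib, PD173074 and Combo, too few for a ratio. The adjusted p was 0.839 unpaired and 0.00154 with the block, under which the log2 fold change was −0.92 ± 0.18. Without A1005, Prrx1 passed in the unpaired fit as well (−0.99, adjusted p = 0.0127). With the block it was lost without A1129 (adjusted p = 0.0546) and without A1471 (0.0673).

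Foxc2 (chr8:121116171-121118895, plus strand) split the lines. From DMSO to Combo it went from 37.2 to 10.1 CPM in A1471 and from 29.2 to 30.7 CPM in A1129, and in A1005 from 16 counts to 3. Neither fit called it, with adjusted p values of 0.837 and, with the block, 0.0712. The unpaired direction rested on A1471, since the log2 fold change was 0.06 without that line, and with the block it was −1.98 (adjusted p = 0.00237) without A1129.

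Vim (chr2:13573927-13582826, plus strand) was not called in any comparison. It was present at 3095, 2482 and 3092 CPM in DMSO and 2737, 1903 and 3204 CPM in Combo, and the groups overlapped. Its log2 fold change was −0.14 ± 0.23 (adjusted p = 0.739), and −0.17 ± 0.12 with the block (adjusted p = 0.249). Over 14 alternative settings its log2 fold change lay between −0.27 and −0.05, and none passed the threshold.

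Zeb1, Zeb2 and Tcf4 stood above their DMSO level in each line in Combo. Zeb1 (chr18:5591860-5775467, plus strand), a zinc-finger and homeobox repressor of Cdh1, was at 56.8, 58.5 and 80.5 CPM in DMSO and 60.5, 73.9 and 99.4 CPM in Combo, with overlapping groups. Its log2 fold change was 0.26 ± 0.27 (adjusted p = 0.592), and 0.24 ± 0.10 with the block (adjusted p = 0.0671). The value was above DMSO in 3 of 3 lines, by 0.09, 0.34 and 0.31 on the log2 scale, without a call in any of 14 alternative settings.

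Zeb2 (chr2:44983632-45117395, minus strand), the paralogue of Zeb1, was at 55.4, 40.5 and 27.8 CPM in DMSO. In PD173074 it was at 79.0, 47.9 and 40.2 CPM and in Combo at 86.8, 46.8 and 43.5 CPM, above the DMSO library of the same line in 3 of 3 lines under both. The log2 fold change in Combo was 0.52 ± 0.43 unpaired (adjusted p = 0.481) and 0.51 ± 0.14 with the block (adjusted p = 0.0133). The blocked call was lost without A1005 (adjusted p = 0.110) and without A1471 (0.0502). The antisense gene Zeb2os covers 3.27% of its exon bases.

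Tcf4 (chr18:69343356-69689079, plus strand), an E-protein that pairs with Twist factors, was at 62.8, 120.0 and 188 CPM in DMSO and 91.3, 202 and 232 CPM in Combo. It was higher in each line, by 0.54, 0.75 and 0.31 on the log2 scale, and the groups overlapped, with the highest and lowest line 2.98-fold apart in DMSO. The unpaired adjusted p was 0.606. With the block the log2 fold change was 0.53 ± 0.12 with an adjusted p of 0.00334, a call kept without any one line.

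Fibroblast markers moved in the same direction as Zeb2 and Tcf4. Their summed level was 139 to 335 CPM over the 3 lines in DMSO, 127 to 353 in Crizotinib, 257 to 718 in PD173074 and 345 to 947 in Combo. Of the 6 markers, 4 were tested (Pdgfra, Pdgfrb, Dcn and Col1a1). None of them passed in the unpaired fit and all 4 were higher with the block, while Thy1 was at 0 in every library and Lum reached 1 count in 1 library. Col1a1 was nearly confined to A1005, with 2929, 0 and 1 counts in DMSO and 13654, 5 and 9 in Combo in A1005, A1129 and A1471. Pdgfrb started from 7 counts in DMSO in A1129. The part of these markers in the change of Zeb2 and Tcf4 was not tested.

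Snai2 (chr16:14705852-14709385, plus strand), known as Slug and a partner of Snai1 in repressing Cdh1, was hardly read. In A1129 its counts were 5, 3, 6 and 17 in DMSO, Crizotinib, PD173074 and Combo, in A1471 they were 1, 2, 8 and 32, and in A1005 they were 0. In A1471 the exact 95% Poisson interval was 0.0253 to 5.57 counts in DMSO and 21.9 to 45.2 in Combo, and in A1129 it was 1.62 to 11.7 and 9.90 to 27.2; these intervals cover counting error only. Both lines had their highest count in Combo. With no filter on low counts, the unpaired log2 fold change was 3.00 ± 1.52 with an adjusted p of 0.388. For the count of 0 in A1005 the same 95% interval reached up to 3.69 counts. Without A1005, Snai2 passed the filter, through the Combo libraries in which it is high, so a difference was built into that choice; it was then at 3.00 ± 0.70 in the blocked fit (adjusted p = 0.00985) and did not pass unpaired.

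**Figure D2:**
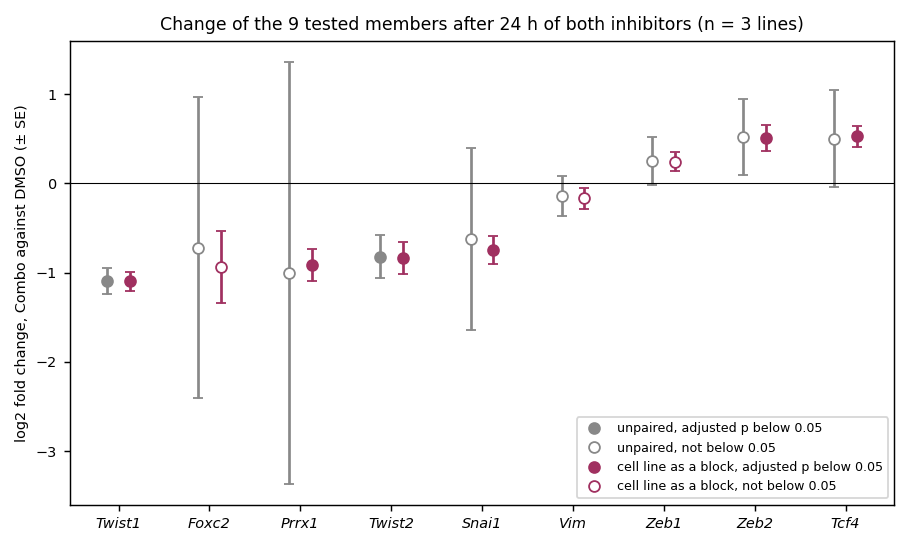
Log2 fold change of Combo against DMSO for the 9 tested members, with SE bars (n = 3 lines), in the unpaired fit (grey) and in the blocked fit (purple), where filled symbols have an adjusted p under 0.05. Twist1 and Twist2 are filled in both fits, and Snai1, Prrx1, Zeb2 and Tcf4 with the block only, with wider SE bars in the unpaired fit.

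The change of each member was then set against that of Twist1 itself. For each library the log2 ratio of the member to Twist1 was taken, and Combo was compared with the mean of the 3 other treatments of the same line by a two-sided exact permutation test within lines, in which the smallest p that the 64 arrangements allow is 0.0156. The comparison was made for 8 members. Tcf4 rose relative to Twist1 by 1.45 ± 0.12 on the log2 scale (mean ± SD, n = 3 lines), Zeb2 by 1.41 ± 0.33, Zeb1 by 1.20 ± 0.23 and Vim by 0.93 ± 0.33, each with an exact p of 0.0156 and in 3 of 3 lines. Since Twist1 was lowest in Combo in every line, a gene that stays level also rises relative to it, as Vim did without a call of its own. The p therefore says only that these members did not fall as Twist1 did. The share of all genes that reach it was not computed. Twist2 differed from Twist1 by 0.19 ± 0.17 (exact p = 0.281) and Snai1 by 0.30 ± 0.34 (exact p = 0.266), so their changes could not be separated from that of Twist1 by this test. Foxc2 gave −0.06 ± 1.13 (exact p = 0.844), with A1129 above and the other two lines below Twist1. Prrx1 also reached the smallest p, at 0.62 ± 0.71, but the mean was carried by the few counts of A1005 and was 0.21 without that line, where the smallest p possible is 0.0625.

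**Figure D3:**
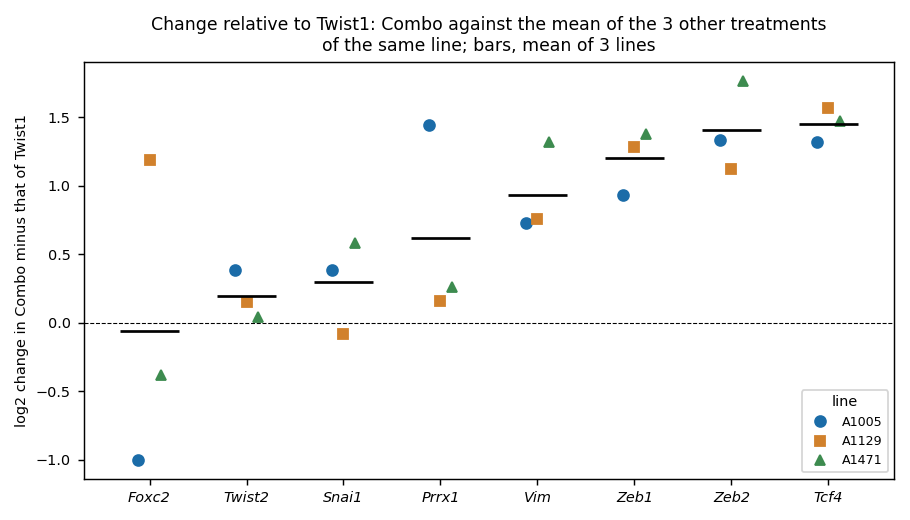
Log2 change of each member in Combo minus that of Twist1, each against the mean of the 3 other treatments of the same line, with 1 symbol per line and a bar at the mean; 0 means that the member changed as Twist1 did. Zeb1, Zeb2, Tcf4 and Vim lie above 0.7 in every line, whereas the lines of Twist2 lie between 0.04 and 0.38, and the A1005 value of Prrx1 rests on 2 to 8 counts.

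Either inhibitor alone left the group without a call. With Crizotinib, edgeR called 0 of the 9 members in both fits, 0 had an unadjusted p under 0.05, and DESeq2 and limma-voom called 0 as well. The background was 0% of all genes in both edgeR fits. The unpaired log2 fold change was 0.12 ± 0.15 for Twist1 and −0.20 ± 1.01 for Snai1. Twist1 was above DMSO in 3 of 3 lines with Crizotinib, by 0.08, 0.13 and 0.17 on the log2 scale, and none of its alternatives passed the threshold.

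With PD173074, 0 of the 9 members were called by edgeR, DESeq2 or limma-voom. The background was 0% of all genes in the unpaired edgeR fit and 2.14% with the block. Twist1 had an unadjusted p under 0.05 in the unpaired fit, and Twist1 and Zeb2 had one with the block. The log2 change of Twist1 was −0.57, −0.32 and −0.13 in A1005, A1129 and A1471, and the fit gave −0.35 ± 0.15 (adjusted p = 1), or −0.34 ± 0.10 with the block (adjusted p = 0.142). Zeb2 gave 0.43 ± 0.14 with the block (adjusted p = 0.177), beside 0.51 ± 0.14 in Combo. Foxc2 was below DMSO in 3 of 3 lines, with an adjusted p of 0.422 under the block.

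**Figure D4:**
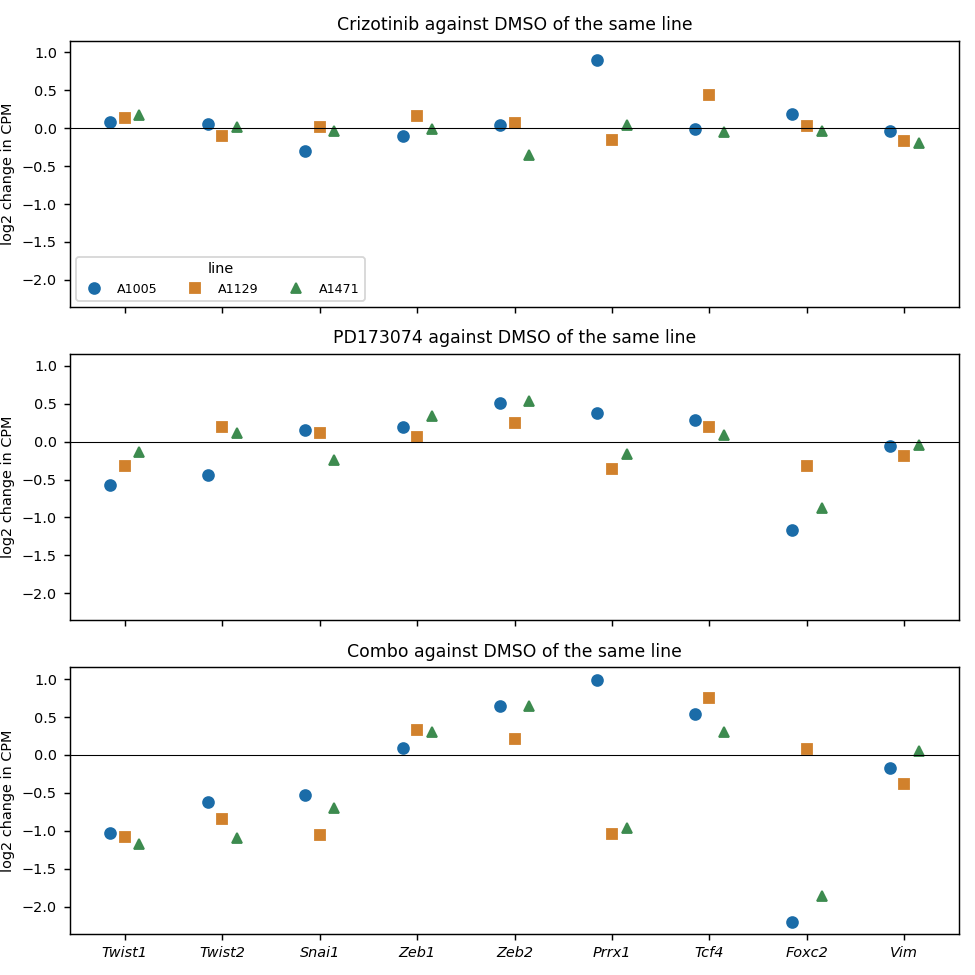
Log2 change in CPM (prior count of 2) against DMSO of the same line for 9 members, in 3 panels for Crizotinib, PD173074 and Combo, with 1 symbol per line; Snai2 is left out for its low counts. In the Combo panel Twist1, Twist2 and Snai1 lie below 0 and Zeb1, Zeb2 and Tcf4 above 0 in every line, and the A1005 symbol of Prrx1 rests on 2 to 8 counts.

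Combo was also compared with each single inhibitor, using the same Combo libraries as above. Against Crizotinib, Twist1 was the only 1 of the 9 members called in the unpaired fit (−1.22 ± 0.15, adjusted p = 0.00104), beside 13.2% of all genes in either direction and 7.78% lower, and Twist2 did not pass (−0.81 ± 0.24, adjusted p = 0.0520). With the block 6 members were called, beside 53.4% of all genes, namely Twist1, Twist2, Snai1 and Prrx1 lower (26% of all genes were) and Zeb2 and Tcf4 higher (27.4%). Against PD173074, the unpaired fit called Twist1 alone (−0.75 ± 0.15, adjusted p = 0.0181), beside 4.77% of all genes in either direction and 3.93% lower. With the block 5 were called, beside 39.8%: Twist1, Twist2, Snai1 and Prrx1 lower (20.2% of all genes were) and Tcf4 higher (19.6%). Against either single inhibitor, each of these blocked calls except that of Twist1 was lost on leaving out at least 1 of the lines. The blocked call of Tcf4 against PD173074 was lost whichever line was left out. Its adjusted p was 0.0702 without A1005, 0.145 without A1129 and 0.104 without A1471. Against Crizotinib the unpaired call of Twist1 was lost without A1129, and against PD173074 it was lost without A1129 and without A1471. With the block and without A1471, 2 members were called against each single inhibitor, as were 2 against PD173074 without A1129, Twist1 among them in each case. Zeb2 differed from its PD173074 level by 0.08 ± 0.14 with the block (adjusted p = 0.702). Twist2, which stood near its DMSO level in PD173074, was lower in Combo than in PD173074 by a log2 fold change of −0.81 ± 0.18 with the block (adjusted p = 0.00572), a call lost without A1129 (adjusted p = 0.0791) and without A1471 (0.0865).

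The effect of Combo was then compared with the sum of the 2 single effects on the log2 scale. In the unpaired fit 0 of the 9 members departed from the sum by edgeR or limma-voom and 1, Twist1, by DESeq2 (adjusted p = 0.00139), and edgeR gave 2 members an unadjusted p under 0.05. The background was 0.918% of all genes with edgeR, which called 127, while limma-voom called 135 genes and DESeq2 462. For Twist1 the departure was −0.87 ± 0.21 unpaired (adjusted p = 0.107) and −0.89 ± 0.15 with the block (adjusted p = 0.00422), so that it was lower in Combo than the 2 single changes added up to. It was then the only 1 of the 9 members called, beside 16.2% of all genes in either direction and 10.7% lower. With the block Twist2 gave −0.80 ± 0.25 (adjusted p = 0.0528), Snai1 −0.66 ± 0.22 (0.0673) and Prrx1 −0.65 ± 0.24 (0.0976), none of which passed. Leaving out A1005 under the block brought the count to 3 (Twist1, Twist2 and Prrx1), and the call of Twist1 was lost without A1129 (adjusted p = 0.0678) and without A1471 (0.0714).

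The wider EMT machinery was followed in 8 lists with 118 genes, of which 88 were tested in Combo against DMSO. In the unpaired fit 6 of the 88 were higher, 10 were lower and 72 did not pass, and with the block 28 were higher and 24 lower, beside the 14.4% and 54.8% of all genes. By direction, 8.28% of all genes were lower unpaired, and with the block 28.6% were higher and 26.2% lower. The counts of single lists below stand beside these shares, and several lie near them. The median log2 fold change of the 88 was 0.08, beside 0.02 over all genes. The unpaired count of listed genes called was 1 without A1129 and 0 without A1471, in fits with fewer libraries.

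Among the 10 bHLH partners and inhibitors, 6 were tested and none passed in the unpaired fit. With the block 2 were higher and 1 lower. Id1, an inhibitor of bHLH dimers, was at 69.6 ± 52.3 CPM in DMSO and 16.8 ± 9.67 CPM in Combo (−1.88, adjusted p = 6.99e-05 with the block). Id3, a related inhibitor, was at 44.4 ± 25.4 CPM in DMSO and 121 ± 48.2 CPM in Combo (1.501, adjusted p = 0.0312 with the block). The E-protein Tcf12 gave 0.24, adjusted p = 0.0477 with the block, and Tcf3 gave 0.15, adjusted p = 0.343. Id2 and Id4 passed in neither fit, with adjusted p values of 0.714 and 0.986 unpaired.

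Of 14 other transcription factors linked to EMT, 10 were tested, 2 rose and none fell in the unpaired fit. With the block 5 rose and none fell, beside 28.6% and 26.2% of all genes. Foxc1, a forkhead factor and the paralogue of Foxc2, was at 42.5 ± 12.2 CPM in DMSO and 187 ± 45.5 CPM in Combo, with a log2 fold change of 2.14 ± 0.28 and adjusted p = 0.00144. Sox4, an HMG-box factor, was at 259.8 ± 81.0 CPM in DMSO and 1134 ± 561 CPM in Combo, with 2.13 ± 0.46 and adjusted p = 0.0146. Within the forkhead pair the genes therefore differed in direction in 2 of 3 lines: Foxc1 changed by 1.77, 2.76 and 1.90 and Foxc2 by −2.20, 0.07 and −1.86 on the log2 scale in A1005, A1129 and A1471, where the A1005 value of Foxc2 rests on 16 and 3 counts. Prrx2, the paralogue of Prrx1, was called higher with the block (1.90, adjusted p = 5.08e-05), in the fit that called Prrx1 lower.

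Of 12 epithelial-state transcription factors and splicing regulators, 7 were tested, and 2 fell in the unpaired fit with none higher. Grhl2, a grainyhead factor of epithelial cells, was at 6.28 ± 3.29 CPM in DMSO and 0.806 ± 0.416 CPM in Combo, with −2.95 ± 0.78 and adjusted p = 0.0328. Klf5 was at 65.8 ± 9.83 CPM in DMSO and 24.2 ± 10.03 CPM in Combo, with −1.44 ± 0.31 and adjusted p = 0.0148. With the block 2 were lower and 2 higher, the latter including the ETS factor Ehf (adjusted p = 4.18e-05), at 0.126 ± 0.165 CPM in DMSO and 2.86 ± 3.64 CPM in Combo, which had at most 4 counts in a DMSO library and passed the filter through libraries with an inhibitor, so that a difference was built into that choice. The list median was 0.83 although its 2 unpaired calls were lower.

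Of 20 listed junction and keratin genes of epithelial cells, 11 were tested, and 1 passed in the unpaired fit: Cldn1, a tight-junction claudin, with 0, 2 and 1 counts in DMSO and 2, 63 and 64 in Combo in A1005, A1129 and A1471 (adjusted p = 0.0448). With so few counts in DMSO, Cldn1 passed the filter through libraries with an inhibitor, as Ehf did. With the block 3 were higher, with Krt7 (2.70, adjusted p = 3.00e-05) beside Cldn1 and St14, and 4 lower, with the keratin Krt18 (−0.996, adjusted p = 2.25e-04) among them. St14, with 4, 1 and 5 counts in DMSO, passed the filter through libraries with an inhibitor too. Cdh1, the target of the Snail, Zeb and Twist repressors, was not tested, with 0.0438 ± 0.0759 CPM in DMSO and 0.307 ± 0.254 CPM in Combo.

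Mesenchymal effector genes moved both ways. Of 28 listed, 23 were tested, 1 rose and 3 fell in the unpaired fit. Mmp14, a membrane-bound matrix metalloproteinase, was at 118 ± 43.0 CPM in DMSO and 523 ± 416 CPM in Combo, with 2.14 ± 0.64 and adjusted p = 0.0492. Cd44, the hyaluronan receptor, was at 568 ± 139.6 CPM in DMSO and 121 ± 51.3 CPM in Combo, with −2.23 ± 0.31 and adjusted p = 0.00181. The intermediate filament gene Nes and the membrane linker Msn were the other two that fell. With the block 11 were higher and 5 lower, beside 28.6% and 26.2% of all genes, and the list median was 0.98 unpaired. Col1a1, Col1a2, Col5a2 and Lox, among the higher, were nearly confined to A1005. Their DMSO counts in A1005, A1129 and A1471 were 2929, 0 and 1 (Col1a1), 1697, 0 and 0 (Col1a2), 41, 1 and 0 (Col5a2) and 6161, 1 and 7 (Lox). Postn, among the higher, had 0, 0 and 1 counts in DMSO. It passed the filter through libraries with an inhibitor, so a difference was built into that choice. Fn1, which encodes fibronectin, changed by 0.31, −0.35 and 3.27 on the log2 scale in A1005, A1129 and A1471, and passed in neither fit. Cdh2, which encodes N-cadherin, was not tested and reached at most 0.453 CPM.

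Among 14 corepressors and chromatin partners of the EMT factors, all tested, Ajuba, a LIM-domain partner of Snail proteins, rose (1.90 ± 0.47 and adjusted p = 0.0249) and Suz12, a subunit of Polycomb repressive complex 2, fell (−0.85 ± 0.24 and adjusted p = 0.0439), and with the block 1 was higher and 5 lower. Among 11 tested regulators of the stability of EMT factor proteins, the ubiquitin ligase gene Siah1a rose (1.02 ± 0.30 and adjusted p = 0.0467), and Siah2 (−0.98 ± 0.26 and adjusted p = 0.0326) and Fbxl14 fell, with 3 higher and 4 lower under the block. Transcript levels give no value for the proteins that these ligases act on. Of 9 intermediate filament and cytoskeleton partners of vimentin, 7 were tested and 3 fell in the unpaired fit, Nes, Lmna and Lmnb1, and with the block 1 was higher and 4 lower. The higher one, Synm, had 8, 4 and 1 counts in DMSO. It passed the filter through libraries with an inhibitor, so a difference was built into that choice. Lmnb1, which encodes lamin B1 of the nuclear lamina, was at 208 ± 65.8 CPM in DMSO and 56.0 ± 16.6 CPM in Combo, with −1.89 ± 0.33 and adjusted p = 0.00494.

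**Figure D5:**
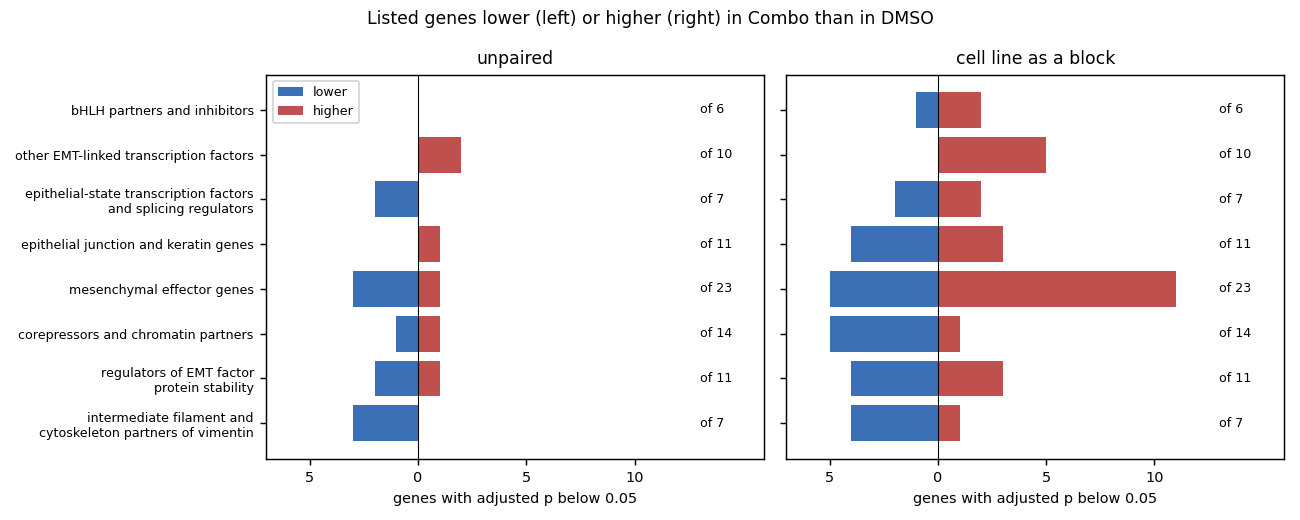
Number of listed EMT pathway genes lower (blue, to the left) or higher (red, to the right) in Combo than in DMSO at an adjusted p under 0.05, unpaired (left panel) and blocked by line (right panel); the number at the right of each row gives the genes tested. Mesenchymal effector genes have 1 higher and 3 lower of 23 in the unpaired fit and 11 higher and 5 lower with the block, where 28.6% of all genes were higher and 26.2% lower.

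The genes whose pattern was most like that of Twist1 were sought among the 9612 genes whose average log2 CPM was 3 or more, by the root mean square difference over 9 log2 changes (3 treatments in 3 lines, each against DMSO of the same line). The 5 nearest were Yaf2 at 0.125, Npm3-ps1 at 0.133, Eaf1 at 0.136, Ehd4 at 0.152 and Bin1 at 0.154, where the median gene differed by 0.706. Npm3-ps1 is a pseudogene, and reads shared with its parent gene cannot be told apart. Twist2 was at 0.272 (position 291) and Snai1 at 0.393 (position 1306), ahead of all other members. Prrx1 was at 0.805 (position 5849), a value that includes its changes in A1005, which rest on 2 to 8 counts. In A1129 and A1471 the log2 change of Prrx1 in Combo was −1.04 and −0.96, beside −1.09 and −1.17 for Twist1. Measured against Zeb1, from which the median gene differed by 0.415, Tcf4 was the closest member at 0.247 (position 1744), followed by Zeb2 at 0.292 (position 2678). All 9 changes share the 3 DMSO libraries.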

How the data were processed

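RNA was measured in 12 tumoursphere libraries, 1 per line and treatment. The authors deposited raw gene counts; the reads had been mapped with STAR to mm10, HTSeq stands among the tools in the submitters' processing notes, and their versions, the annotation and the strand setting were not given in the sources used here. The members and lists were chosen with earlier results of these data known, and named genes were all members, per list the called genes with the largest rise and fall, fixed partners and the genes nearest to Twist1 and Zeb1; those nearest to Zeb1 are not reported here.

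Genes were filtered with edgeR 4.0.16 (filterByExpr, minimum count of 10, total of 15), scaled by TMM and put through the quasi-likelihood test, with Benjamini-Hochberg adjustment over 13836 genes in R 4.3.3, unpaired across all 12 libraries, since the study's analysis was unpaired. A fit with line as a block was the alternative. The pairing comes from the line in the labels, and deviations of libraries of the same line correlated at 0.871 on average (18 pairs). Between lines the average was −0.422. Deviations from a mean of 3 lines make that value negative by construction, so it is no separate evidence of pairing. DESeq2 1.42.0, limma-voom (limma 3.58.1), other scalings and filters, and leaving out each line were also tried. No 2 libraries were alike within sampling noise. Scripts were tested on simulated data. CPM used TMM library sizes with a prior count of 2 on the log2 scale. RPKM used the union of GENCODE vM21 exons. The unpaired p-values measure the spread among libraries of the same treatment, which includes the differences between lines. Those of the blocked fit measure the spread left after constant line differences are removed. The exact p comes from permuting treatments within lines. All of them rest on 3 lines.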

Additional observations from a re-analysis of the deposited data

Results flagged for a closer look

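Groups of 3 lines are too small for a test of single outlying libraries. The departure of Combo from the sum of both single inhibitor effects passed the test for Twist1 alone among the members, at −0.89 on the log2 scale in the fit blocked by line, which is a test of a difference between effects. Unpaired it was −0.87 with an adjusted p of 0.107. In the blocked fit the adjusted p was 0.00911 without A1005, 0.0678 without A1129 and 0.0714 without A1471.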

How the results depend on the processing

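Of 735 values of single members under the alternatives, 43 changed sign, 0 of them past the threshold in either setting, with an absolute log2 value of at most 0.193 except for Foxc2 (at most 0.391). With the replicate block, the number of members called was 6 for Combo against DMSO, 6 against Crizotinib, 5 against PD173074 and 1 for the departure from the sum, and of the listed pathway genes 52 were called; it changed no call for either single inhibitor. For Combo against DMSO the count of 2 became 1 with total counts only, with no filter on low counts and with only the groups compared. For Combo against Crizotinib DESeq2 and limma-voom called 2 members, beside 2930 and 1858 of all genes. Against PD173074 DESeq2 called 2, beside 1528 of all genes, and for the departure it called 1, beside 462. Against PD173074, 0 were called with no filter and with only the groups compared. At the study's own limit on effect size, a log2 fold change of 1.5 in either direction, 0 members were called in any comparison. Leaving out 1 line gave unpaired counts from 0 to 3 against DMSO, 0 to 2 against Crizotinib, 0 to 1 against PD173074 and 0 for the departure. With the block they were 4 to 6, 2 to 6, 2 to 4 and 0 to 3 in the same order. Of the listed genes DESeq2 called 25, no filter 7, and leaving out 1 line between 0 (without A1471) and 12 (without A1005). The log2 fold change of Foxc2 in Combo against DMSO ran from −1.98 (blocked, without A1129) to 0.058 (unpaired, without A1471) with 1 line left out. In the blocked fit without A1471 it was −0.37 and did not cross 0. Against DMSO alone, Tcf4 rose by 1.63 relative to Twist1. The causes of these differences were not tested. Fits that left out a line also had fewer libraries, and the part of that in the lost calls was not tested either. Depth limits Snai2 in every line and Prrx1 and Foxc2 in A1005.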
